A study of Mus musculus with 8 samples.

Results

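The 10 genes described here shape and maintain mitochondria: Mfn1, Mfn2 and Opa1 (fusion), Oma1 (cleavage of OPA1), Dnm1l, Fis1, Mff and Mief1 (fission), Pink1 (removal of damaged mitochondria) and Hspd1 (protein folding in the matrix). They are a given list, matched by symbol to the Ensembl identifiers of both deposited tables, and all 10 were found among the 23634 genes of the longer table and the 21201 genes of the shorter table. All 10 also have an adjusted p-value in both, so none was lost to the filter on low means. None of the 10 passed the genotype test in either table, and their measured differences were small, from -0.05 to 0.07 on the log2 scale in the authors' deposited longer table and from -0.16 to 0.12 in the shorter.

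RNA came from livers of mice lacking Cpeb4 (Cpeb4 KO) and of wild-type mice, with 2 libraries in each of 4 groups, which cross the genotype with the RNA preparation, total liver or purified endoplasmic reticulum (ER). The ER was isolated from mice fasted overnight. Whether the livers used for total RNA were fasted is not given, nor are strain, age, sex, how the allele was made, or whether both libraries of a group are separate animals. The p-values therefore measure only a spread between libraries that may be technical. Each table holds 1 mean and 1 genotype comparison per gene, and neither names its preparation, so no value per library can be given and neither table is assigned to liver or ER.

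Mitochondria form a network that is remodelled by joining and dividing. The mitofusins MFN1 and MFN2 are GTPases that join outer membranes, and OPA1 joins inner membranes and keeps cristae closed. Division needs the dynamin-related GTPase DRP1, encoded by Dnm1l, which is brought from the cytosol to the outer membrane by MFF, MIEF1 and, less clearly in mammals, FIS1. The kinase PINK1 gathers on mitochondria that lose membrane potential and recruits the ubiquitin ligase Parkin, which marks them for mitophagy. In hepatocytes, which are rich in mitochondria, MFN2 also sits at contacts with the ER. CPEB4 binds cytoplasmic polyadenylation elements in the 3′ ends of mRNAs and acts on poly(A) tails and translation, which counts of transcripts do not measure.

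The elements that CPEB proteins bind were searched in the last 300 bases of 1 transcript per gene (GENCODE M21, GRCm38, sense strand). Elements farther from the end or in other transcripts lie outside this window, and contact of CPEB4 with any of these mRNAs was not measured. The motifs were TTTTAT and TTTTAAT, neither of which holds the other. Of the 10 genes, 4 had at least 1 of them (Mfn1, Opa1, Oma1 and Mief1), against 33.8% of 11851 tested protein-coding genes with a window of that length. The reverse complements occurred in 5 of the 10 windows and in 46.4% of all windows, and the polyadenylation hexamer AATAAA in 8 of the 10 and in 70.7% of all. The windows around the elements are shown 5′ to 3′ on the plus strand, with the elements in capitals; all 4 lie in the annotated 3′ UTR.
Mfn1, chr3:32579164-32579193: tttacaaaacatTTTTATaagtatgcaagc
Opa1, chr16:29654611-29654640: gtatcttttacaTTTTATttgTTTTAATga
Oma1, chr4:103366328-103366357: atttttctaggtTTTTATctttcatgaaat
Mief1, chr15:80253092-80253121: gtgggtgttaacTTTTATtttgatcacctt

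The element of Mfn1 ends 58 bases before the transcript end and that of Oma1 98 bases before it, and the hexamer AATAAA ends 28 and 27 bases before the end of the same transcripts. The first element of Opa1 and that of Mief1 lie farther away, 256 and 262 bases before the end. Over the whole annotated 3′ UTR, Opa1 had 6 elements in 3141 bases, Mfn1 4 in 2098, Mief1 and Dnm1l 2 each in 3236 and 1754, and Oma1 1 in 258, while Mfn2, Fis1, Mff, Pink1 and Hspd1 had none in 1790, 220, 674, 544 and 453 bases. The 4 genes with an element in the window had log2 fold changes from -0.05 to 0.07 in the authors' deposited longer table, inside which lay those of the other 6 genes (-0.04 to 0.06). In the authors' deposited shorter table the 4 ran from -0.08 to 0.12 and the other 6 from -0.16 to 0.11. The ranges overlapped in both tables. Counts of transcripts do not measure poly(A) tails or translation, and an effect of the elements was not tested. A match is a sequence of letters, and binding was not measured.

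Directions rest on Cpeb4, which had the lowest p of each table and whose negative sign was read as lower in the knockout. Its moderated log2 fold changes were -1.16 ± 0.11 and -1.10 ± 0.13 (± SE) in the authors' deposited longer and shorter tables. Moderated means that DESeq2 shrank the estimate towards 0, and all log2 fold changes below are on that scale unless it is said to be undone. With the moderation undone as described under processing, Cpeb4 was at -1.54 ± 0.14 and -1.66 ± 0.20. Over all genes, an adjusted p under 0.05 was reached by 42 of 14180 tested genes in the longer table (0.296%) and 31 of 11661 in the shorter (0.266%), by the authors' DESeq2 Wald test with its adjustment over the whole table. Of hepatocyte, macrophage, endothelial, stellate, bile duct and red cell marker lists, 8, 9, 6, 6, 3 and 4 members were tested in the longer table and 8, 9, 6, 4, 3 and 4 in the shorter. Their median log2 fold changes in that order were 0.05, -0.06, 0.00, -0.05, -0.05 and -0.30 in the authors' deposited longer table, and 0.02, -0.09, 0.03, -0.09, -0.05 and -0.40 in the shorter. Tat, a hepatocyte enzyme, was the marker that passed, in both. The labelled tissue was visible in both tables, since the counts per kilobase summed to 1063931 and 635481 over the hepatocyte list, against 109 to 15962 and 94 to 19142 over the 5 other lists.

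Of the fusion genes, Mfn1 had the largest positive value of the 10 genes in both tables. Mfn1 (ENSMUSG00000027668, GRCm38 chromosome 3, 32529465 to 32579239) had mean normalised counts of 1911 and 1772 in the authors' deposited longer and shorter tables. The genotype difference was 0.07 ± 0.09 (log2, ± SE, adjusted p = 1.00) in the deposited longer table and 0.12 ± 0.12 (adjusted p = 0.999) in the deposited shorter, by DESeq2. The estimate was about as large as its error in the shorter table and lay within the error in the longer.

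Mfn2 (ENSMUSG00000029020, chromosome 4, 147873599 to 147904704), the mitofusin also found at ER contacts, had mean counts of 6019 and 3981 in the authors' deposited tables. Its log2 fold changes were 0.03 ± 0.09 and -0.02 ± 0.11 in the deposited longer and shorter tables, of opposite sign and both within their error. Mfn1 and Mfn2, which act in the same step, thus each stayed below the size needed to pass, which was 0.36 and 0.33 in the longer table and 0.44 and 0.43 in the shorter.

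Opa1 (ENSMUSG00000038084, chromosome 16, 29579334 to 29654884), the inner membrane GTPase, had the value closest to 0 in the longer table. Its mean counts were 4070 and 3983, and its log2 fold changes -0.01 ± 0.09 and -0.01 ± 0.11, in the authors' deposited longer and shorter tables. Oma1 (ENSMUSG00000035069, chromosome 4, 103313812 to 103371868) encodes the stress-activated protease that cuts OPA1. It had the lowest counts of the 10 genes, 610 and 676 in the authors' deposited tables. Its log2 fold changes were -0.02 ± 0.11 and -0.08 ± 0.13 in the deposited longer and shorter tables, negative in both and within the error in both.

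The fission genes had no common direction. Dnm1l (ENSMUSG00000022789, chromosome 16, 16312230 to 16358959), which encodes the GTPase that constricts mitochondria, had mean counts of 1670.4 and 1598 and log2 fold changes of 0.04 ± 0.09 and 0.11 ± 0.11 in the authors' deposited longer and shorter tables. Mff (ENSMUSG00000026150, chromosome 1, 82724890 to 82752394), its main receptor on the outer membrane, had mean counts of 1027 and 1100.0 and log2 fold changes of 0.06 ± 0.10 and 0.10 ± 0.12 in the same deposited tables. The GTPase and this receptor were above 0 in both tables without passing in either.

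Mief1 (ENSMUSG00000022412, chromosome 15, 80234018 to 80253371), another adaptor that recruits DRP1, had mean counts of 1162 and 1002 and log2 fold changes of -0.05 ± 0.11 and -0.02 ± 0.12 in the authors' deposited longer and shorter tables. Fis1 (ENSMUSG00000019054, chromosome 5, 136953275 to 136966234), a small tail-anchored outer membrane protein, had mean counts of 2446 and 4654 and log2 fold changes of 0.02 ± 0.09 and -0.01 ± 0.11 in these deposited tables. Both adaptors lay within their error.

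Pink1 (ENSMUSG00000028756, chromosome 4, 138313409 to 138326307) had the largest absolute value of the 10 genes, in the shorter table. Its mean counts were 9433 and 11547 in the authors' deposited longer and shorter tables. Its log2 fold change came to -0.04 ± 0.09 in the deposited longer table and -0.16 ± 0.10 (adjusted p = 0.999 by DESeq2) in the deposited shorter, a change of -10.4% on the moderated scale. Its 95% interval in the shorter table reached from -0.36 to 0.05 and held 0. Its absolute Wald score was the largest of the 20 that these genes had, and 90.7% of all genes tested in the shorter table had a lower one.

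Hspd1 (ENSMUSG00000025980, chromosome 1, 55077835 to 55088243) encodes HSP60, the matrix chaperonin and a common readout of the mitochondrial unfolded protein response. It had the highest level, with mean counts of 20972 and 26949 in the authors' deposited longer and shorter tables, and log2 fold changes of 0.04 ± 0.08 and 0.07 ± 0.11. Its partner Hspe1, the co-chaperonin HSP10 transcribed from the opposite strand next to it, had log2 fold changes of 0.08 ± 0.09 and 0.07 ± 0.11 in these deposited tables (chosen after its values were seen). The counts of Hspd1 are uncertain, because 53.1% of its 31-base words occur in other annotated genes, among them several Hspd1 pseudogenes. The pseudogene Hspd1-ps3 had a mean count of 9901 in the authors' deposited longer table and 2185 in the shorter, which is 31.8% and 7.50% of the sum of Hspd1 and its listed copies. The log2 fold change of Hspd1-ps3 was 0.00 ± 0.08 and 0.08 ± 0.12 in these deposited tables, as near 0 as that of Hspd1 itself.

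**Figure D1:**
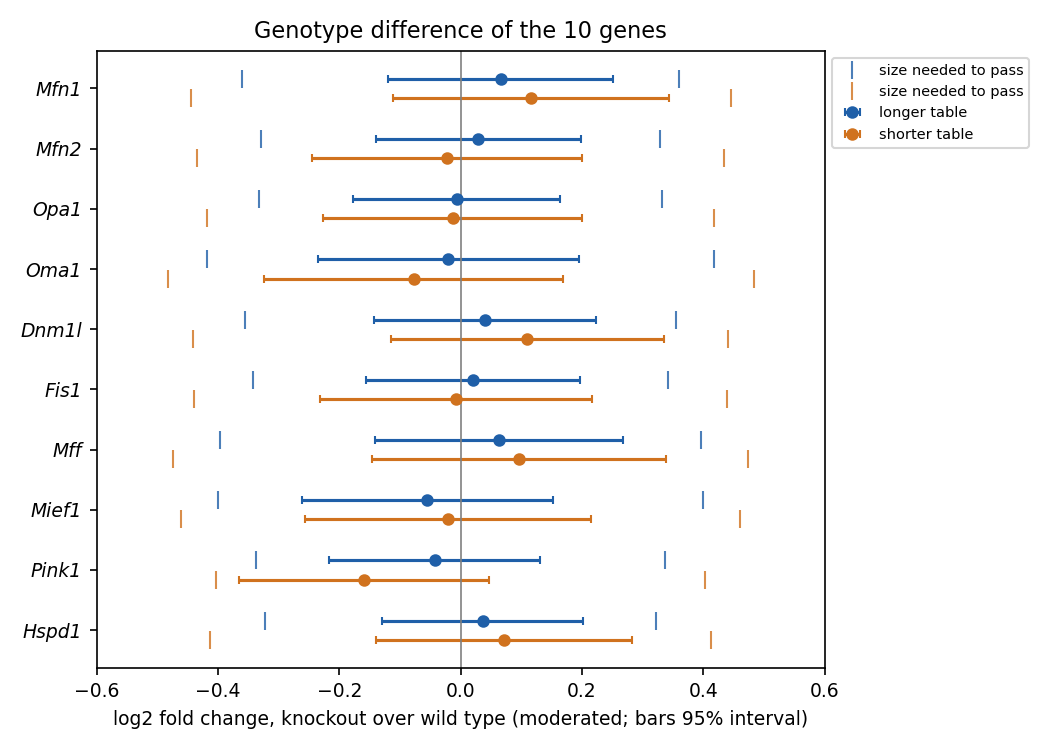
Log2 fold change (knockout over wild type, moderated, horizontal axis) of each of the 10 genes in the longer and shorter table; bars are 95% intervals and short vertical ticks the size each gene would have needed to pass the test. All 20 intervals hold 0, and no point reaches its ticks.

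None of the 10 genes passed in either table, beside 0.296% and 0.266% of all tested genes. At so low a background, 0 of 10 says nothing particular to these genes. At an unadjusted p of 0.05 the count was also 0 of 10 in each table, where 3.62% and 4.11% of all genes lay below it (DESeq2 Wald test). There were 6 genes above 0 and 4 below in the longer table, with a median of 0.02, and 4 above and 6 below in the shorter, with a median of -0.01. All tested genes had 49.6% and 50.3% above 0 and medians of 0.00 in both. The median absolute value of the 10 genes was 0.04 and 0.07 in the longer and shorter table, against 0.06 and 0.07 for the 6166 and 5006 genes with a mean at least that of Oma1.

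The tables give the size that an estimate needed to pass and the interval around each estimate. A gene passed at an absolute Wald score of 3.80 or more in the longer table and 3.84 in the shorter, so that a moderated log2 fold change of 0.32 (Hspd1) to 0.42 (Oma1) was needed in the longer table and 0.40 (Pink1) to 0.48 (Oma1) in the shorter. With the moderation undone, the 95% intervals of the 10 genes taken 1 by 1 lay between 0.787-fold (Mief1) and 1.27-fold (Mff) of the wild type in the longer table, and between 0.735-fold (Oma1) and 1.37-fold (Mff) in the shorter. These bounds are the outermost interval ends and not a limit of detection. With 2 libraries per group, an estimate had to reach the sizes given above, on the moderated scale, to pass. True changes of these sizes, and smaller or somewhat larger ones, could have gone unseen, because an estimate scatters around the true value. Power was not computed.

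Between the tables the genotype difference did not differ for any of the 10 genes by the z test (0 of 10, beside 2 of 11604 genes or 0.0172%, Benjamini-Hochberg over all genes tested in both; 0 of 10 also at an unadjusted p of 0.05). The largest gap was that of Pink1, with the shorter table's value lower by -0.12 ± 0.14 (95% interval -0.39 to 0.15). Mfn1, Dnm1l, Mff and Hspd1 were above 0 in both tables, Opa1, Oma1, Mief1 and Pink1 below 0 in both, and Mfn2 and Fis1 had opposite signs. Of all genes tested in both tables, 69.9% had the same sign, so the 8 of 10 here are no mark of these genes. The libraries carry the same numbers in both preparations, so the 2 tables may come from the same mice. A shared sign is thus not independent support.

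Levels spanned 75.4-fold among the 10 genes in the longer table and 90.5-fold in the shorter, counted as mean normalised count per kilobase of merged exons. Per kilobase of the longest transcript the span was 38.4-fold and 57.1-fold. Hspd1 stood highest at 7938 and 10200.3 per kilobase in the longer and shorter table, above 97.1% and 97.5% of tested genes. Pink1 followed at 3529 and 4320 (above 94.1% and 94.6%). Fis1 had 1427 and 2715, Mfn2 1159 and 766, and Opa1 517 and 506 per kilobase.

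Dnm1l (321 and 307), Mfn1 (313 and 290) and Oma1 (285 and 315) lay close together, and their order changed between the tables. Mief1 (143 and 124) and Mff (105 and 113 per kilobase) were lowest, near the median of all tested genes. The mitofusin with ER contacts thus had more transcript per kilobase than its partner Mfn1 in both tables, and the fission adaptor Fis1 more than Mff and Mief1. No spread over libraries can be set beside these levels, and the order of Mief1 and Mff turned with another length, since Mff then had 262 and 281 and Mief1 226 and 195 per kilobase of the longest transcript.

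**Figure D2:**
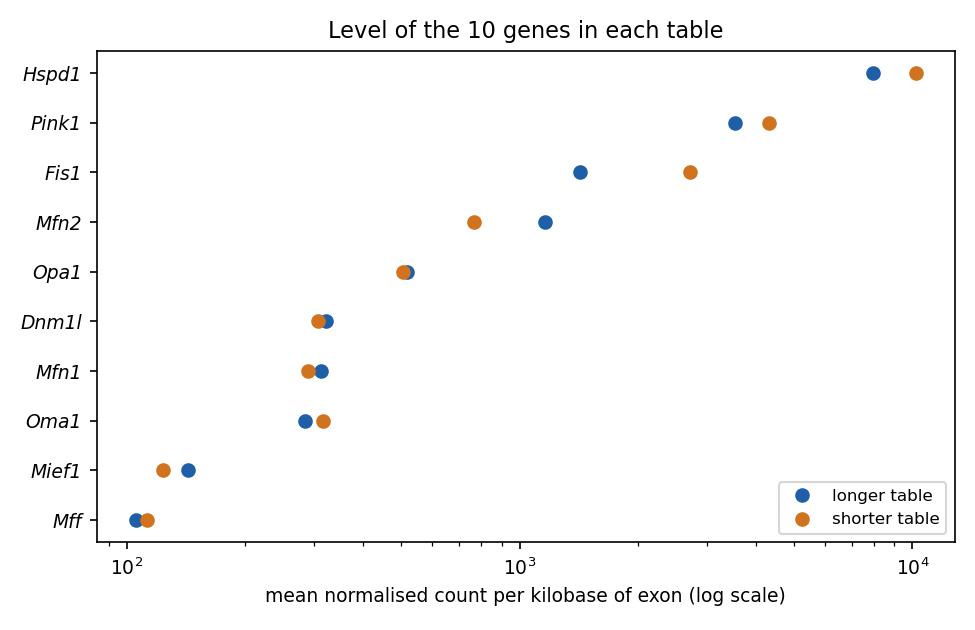
Mean normalised count per kilobase of merged exon length (logarithmic axis) of the 10 genes in each table, ordered by the longer table. Hspd1 (7938 and 10200.3) and Pink1 (3529 and 4320) are highest, and Mief1 and Mff lowest, in both tables.

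The mean of each gene in the shorter table was also set against its mean in the longer, relative to the median ratio of the 11604 genes tested in both (0.838), with the caution that the tables were normalised separately and have no error for this ratio. Fis1 had the highest relative ratio of the 10, 2.27-fold, above 96.2% of genes. Hspd1 had 1.53-fold, a value that rests on how reads were split between copies, since the sum of Hspd1 and its listed copies gave 1.12-fold. Pink1 followed at 1.46-fold, Oma1 at 1.32-fold and Mff at 1.28-fold.

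Opa1 was at 1.17-fold, Dnm1l at 1.14-fold, Mfn1 at 1.11-fold and Mief1 at 1.03-fold. Mfn2 alone of the 10 lay below the median ratio, at 0.789-fold, on the other side of it from the remaining GTPases Opa1, Dnm1l and Mfn1. For comparison, the median was 1.94-fold for 38 nuclear-encoded oxidative phosphorylation genes and 0.668-fold for 19 genes of secreted plasma proteins. Of the 10 genes, Fis1 was the only one above the first median and none was below the second. Which preparation this ratio favours cannot be told from the tables.

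**Figure D3:**
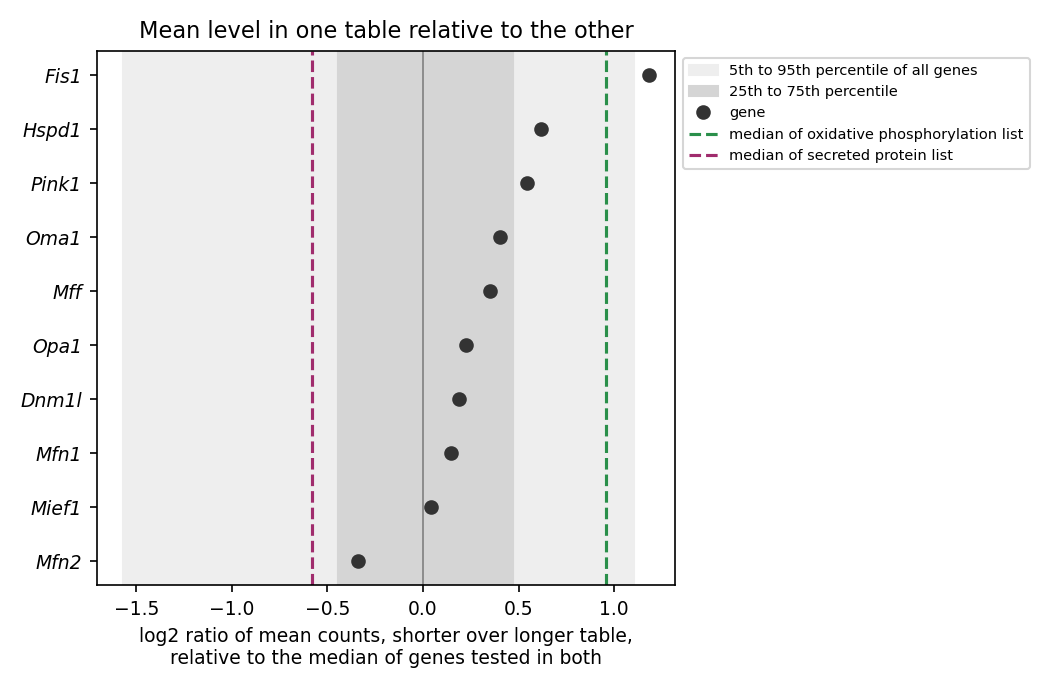
Log2 ratio of the mean count in the shorter over the longer table, relative to the median of all genes tested in both, for the 10 genes (points), with the spread of all genes in grey and the medians of 2 gene lists as dashed lines. Fis1 lies beyond the 95th percentile and Mfn2 is the only point below 0.

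The wider pathway was read from 7 further lists of genes grouped by function, with 94 different genes tested in the longer table and 92 in the shorter. None of them passed in either table, beside 0.296% and 0.266% of all tested genes. At so low a share, a count of 0 says nothing particular to these lists. At an unadjusted p of 0.05 there were 4 and 2, or 4.26% and 2.17%, beside 3.62% and 4.11% of all genes (DESeq2 Wald test). Above 0 were 53 and 50 of them, with medians of 0.02 and 0.01, beside 49.6% and 50.3% of all tested genes above 0. Here and below, the genes of a list were measured in the same libraries, so their signs are not separate observations.

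Other genes of fusion and of OPA1 processing were above 0 in 7 of 10 and 7 of 9 tested cases in the longer and shorter table (medians 0.07 and 0.05). The 2 with the largest scores were Parl, a rhomboid protease of the inner membrane that cuts PINK1 (0.14 ± 0.09 and 0.09 ± 0.12 in the authors' deposited tables), and Yme1l1, the protease that cuts OPA1 beside OMA1 (0.10 ± 0.09 and 0.15 ± 0.11 in the authors' deposited tables). Other genes of fission were above 0 in 3 of 9 and 3 of 8 cases (medians -0.01 and -0.02). Senp5, a SUMO protease, had -0.07 ± 0.11 and 0.11 ± 0.13 in the authors' deposited tables, and Mtfr1 -0.01 ± 0.09 and 0.09 ± 0.11. Neither arm thus had a member past the test.

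The cristae list, of the MICOS complex and its partners, was above 0 in 9 of 10 genes in the longer table and 6 of 10 in the shorter (medians 0.06 and 0.01). Samm50, which builds the outer membrane sorting machinery, had 0.18 ± 0.09 and 0.13 ± 0.11, and Mtx2 of the same machinery 0.16 ± 0.09 and 0.22 ± 0.11, in the authors' deposited longer and shorter tables. Genes of mitochondrial protein import were above 0 in 12 of 15 and 9 of 15 cases (medians 0.09 and 0.04). Among them Tomm40, the pore of the outer membrane, had 0.17 ± 0.10 and 0.06 ± 0.12, and its receptor Tomm20 0.09 ± 0.09 and 0.17 ± 0.12, in the same deposited tables. None of these genes passed.

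Mitophagy receptors and adaptors, the group nearest to Pink1, were above 0 in 8 of 18 genes in the longer table and 11 of 18 in the shorter (medians -0.02 and 0.02). Bnip3, an outer membrane receptor that acts without Parkin, had -0.19 ± 0.08 (p = 0.0177) and -0.13 ± 0.10 in the authors' deposited tables, and Fkbp8, another receptor, -0.06 ± 0.08 and -0.18 ± 0.10. Both were below 0 in both tables and neither passed. They were named for their scores, and their sign does not stand for the list, given the 8 and 11 of 18 genes above 0. Mitochondrial chaperones and proteases, the group nearest to Hspd1, were above 0 in 10 of 17 and 7 of 17 genes (medians 0.03 and -0.03). The pair with the largest scores, both of matrix proteases, had opposite signs: Clpx, the unfoldase of the CLPXP protease, had 0.23 ± 0.11 and 0.25 ± 0.13 in the authors' deposited longer and shorter tables, and the protease Lonp1 -0.08 ± 0.09 and -0.25 ± 0.11.

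Genes of ER-mitochondria contacts were above 0 in 4 of 15 and 7 of 15 cases (medians -0.05 and -0.02). Osbpl5, a lipid transfer protein of ER contacts, had -0.31 ± 0.12 (p = 0.0103) and -0.33 ± 0.13 (p = 0.0118) in the authors' deposited tables, short of the threshold over all genes (adjusted p = 0.673 and 0.711 by DESeq2). Mcu, the calcium channel of the inner membrane, had 0.14 ± 0.10 and 0.06 ± 0.13 in these deposited tables. For comparison, 36 of 38 oxidative phosphorylation genes were above 0 in the longer table and 21 of 38 in the shorter (medians 0.06 and 0.01), with no gene past the test, and in the authors' deposited tables Cycs had 0.23 ± 0.09 and 0.28 ± 0.11 and Ndufa5 0.15 ± 0.09 and 0.12 ± 0.12. Of 15 genes of mitochondrial biogenesis 1 passed in each table, beside 0.296% and 0.266% of all tested genes. It was the coactivator Ppargc1a, with 0.51 ± 0.12 (adjusted p = 0.00648 by DESeq2) and 0.67 ± 0.13 (adjusted p = 0.000667) in the authors' deposited tables. None of the 10 fusion, fission and quality control genes was called, and a link between them and that coactivator was not tested.

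**Figure D4:**
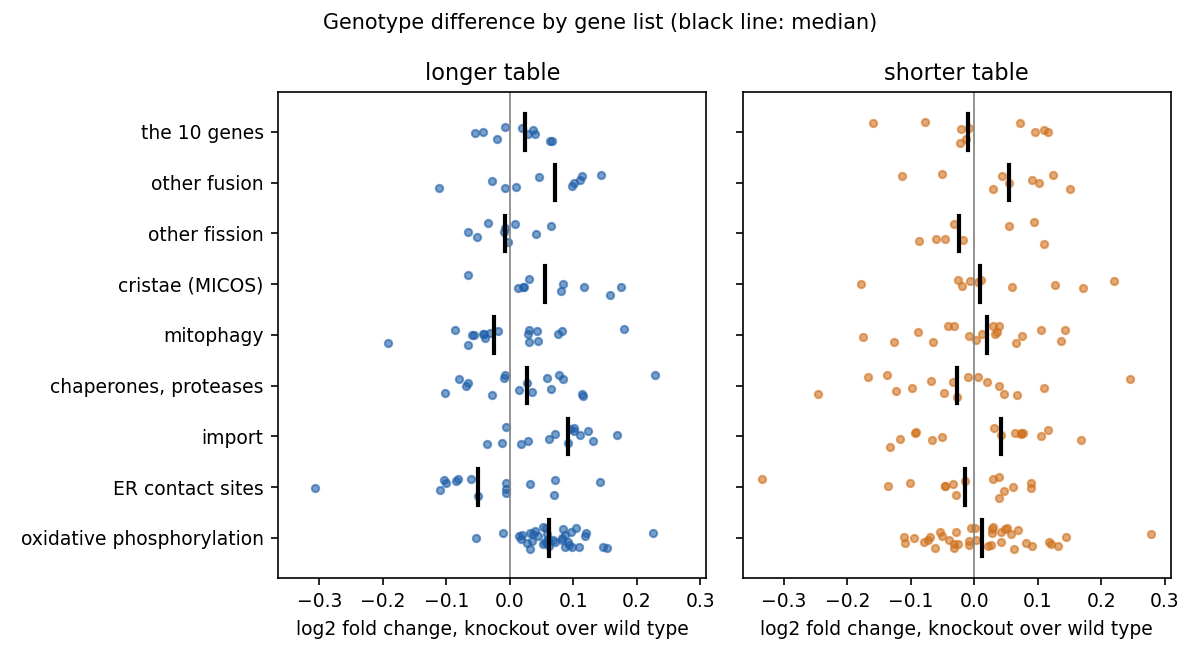
Log2 fold change (knockout over wild type, moderated) of each tested gene by list, in the longer table (left) and shorter table (right); black lines are medians. The 10 genes have medians of 0.02 and -0.01, and the oxidative phosphorylation list 0.06 and 0.01.

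Some of the 10 genes share reads or positions with other annotated genes. Opa1, Oma1, Fis1 and Mfn1 overlap none. Dnm1l overlaps the antisense gene Gm49521, and 9.51% of its 31-base words occur elsewhere. Mff overlaps 2 noncoding genes, Pink1 2 microRNA genes and Mief1 1 protein-coding model on its own strand. Mfn2 overlaps a pseudogene on the other strand, and Hspd1 overlaps Hspe1 there. The strand setting of the counting is unknown here, so reads of such pairs cannot be told apart.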

How the data were processed

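RNA sequencing of 8 libraries is represented by 2 deposited tables of the authors' genotype comparison. STAR 2.3.0e, DESeq2 1.6.3 and mm10 are named, without roles, per the submitters' processing notes; the counter, the annotation and the strand setting are not given in the sources used. Per the file headers the authors gave a mean signal (mean of counts divided by size factors), a log2 fold change and its SE, the Wald score, and p-values before and after adjustment. The direction and compared groups are not written in the tables. Called means an adjusted p under 0.05 in the deposited table, over all its genes.

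From these values, 95% intervals are the estimate ± 1.96 SE. Differences between tables used a z test treating the tables as independent (11604 genes). Moderation was undone by taking the prior's SD as 2 times the largest SE of the table (0.245 and 0.284), which with each SE gives the shrinkage. This step was added after seeing the data. It and the z test were tested on simulated data. Those had independent errors in the 2 tables, so shared mice were not covered. The changes simulated for undoing the moderation were small, so one as large as that of Cpeb4 was not covered. Lengths, positions, overlaps and transcript ends came from GENCODE M21 (GRCm38), which named 23484 of 23634 and 21080 of 21201 identifiers. The 13 protein-coding genes of the mitochondrial genome were looked up by symbol. None was found in either table, so their transcripts could not be analysed. Library depth is not stated in the tables, and no counting interval can be given.

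Named genes were all 10 genes, Cpeb4, and of each other pathway list the called genes or else the 2 with the largest absolute Wald score. The 10 genes and all lists were chosen with earlier results of these data known. Alternatives changed the filter, centring, error model, overlaps, error correlation, length, ratio reference and window. Python 3.11.15, pandas 2.3.3, numpy 2.4.6 and scipy 1.17.1 were used.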

Additional observations from a re-analysis of the deposited data

How the results depend on the processing

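The count of called genes among the 10 stayed at 0 in each table under all 5 alternatives run: no filter on the mean, a mean count of at least 100, recentring, the robust SD of the scores, and leaving out genes that overlap another. With the robust SD, whose value was 0.754 and 0.840, all genes called rose to 224 and 93, or 1.58% and 0.798%, so the authors' scores were narrower than a standard normal. No filter gave 32 and 26 (0.135% and 0.123%) in the longer and shorter table. A mean count of at least 100 gave 39 and 32 (0.355% and 0.331%), and recentring 41 and 31 (0.289% and 0.266%). At such low shares, 0 of 10 says nothing particular to these genes. The count of genes that differ between the tables stayed at 0 with an error correlation of 0.5 and with recentring. Over all genes these gave 6 (0.0517%) and 2 (0.0172%). The median log2 fold change was 0.03 and -0.01 in the longer and shorter table when recentred, and the same with the moderation undone; a mean weighted by 1 over the squared SE, in place of the median, was 0.01 in each table and so above 0 in the shorter. Genes with an element numbered 4 in the last 300 bases, 2 in the last 150 (Mfn1 and Oma1) and 5 in the last 600. The shares of all tested protein-coding genes with windows of these lengths were 33.8%, 23.6% and 46.0% in that order. Taken relative to oxidative phosphorylation genes instead of all genes, the ratio of the tables fell below 1 for 9 genes and was 1.17 for Fis1, by construction of the reference. Levels of Fis1, Mff and Mief1 moved by over 1.5 times with the longest transcript as the length, and the others by less. No paired analysis was possible because the tables hold no values per library, and for the same reason no replicate was left out.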

Other observations

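Hspd1 and its pseudogene Hspd1-ps3 took different shares of reads in the 2 tables. Hspd1-ps3, a processed pseudogene on chromosome 11 (GRCm38, 41498737 to 41500458), had 4.53 times the mean count in the authors' deposited longer table that it had in the shorter, while Hspd1 had 1.28 times the mean in the shorter that it had in the longer. The sum of Hspd1 and its listed copies was 31112 and 29148, nearly level between the tables. The cause was not tested.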
